A study of Rattus norvegicus with 6 samples.

Results

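The protein disulfide isomerases are enzymes and chaperones of the endoplasmic reticulum (ER), and 9 of their genes were followed here: P4hb, Pdia2, Pdia3, Pdia4, Pdia5, Pdia6, Txndc5, Erp29 and Erp44. Their members on the array were all probe sets whose platform annotation gave exactly 1 gene symbol equal to one of these names, which was 12 of 31099 probe sets. Erp44 had 3 probe sets, Pdia3 had 2 and each of the other 7 genes had 1. RNA came from 6 cultures of UMR106-01, a tumour cell line from rat bone with features of the osteoblast, the cell that secretes bone matrix. All cultures were plated at 100000 cells per cm2 with 10% fetal bovine serum, re-fed at 64 h with medium that held 6.5 mM beta-glycerol phosphate, from which mineral draws its phosphate, and collected at 76 h. The mineralizing group (3 cultures) received nothing further. The mineralizing+AEBSF group (3 cultures) had 400 µM AEBSF as well for those 12 h. AEBSF blocks serine proteases irreversibly, and the series title calls it a mineralization inhibitor. Both groups therefore carry the phosphate source, and no culture without it is compared. The question is which of these transcripts the inhibitor changes in cultures set to mineralize.

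A disulfide isomerase makes, breaks and rearranges the bonds between cysteines of newly made secreted proteins. Most members carry thioredoxin-like domains with a pair of reactive cysteines, which are re-oxidised by the Ero1 oxidases and by peroxide-using enzymes such as Prdx4. Several of these genes are known targets of the unfolded protein response, in which Atf6 and Xbp1 raise ER chaperones when folding is overloaded. Osteoblasts secrete large amounts of collagen, and P4hb serves them in a second role, as the beta subunit of the prolyl 4-hydroxylase that stabilises the collagen helix.

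The cells carried transcripts of the osteoblast list. Of its 10 genes, 7 were bright enough to be tested, Bglap (osteocalcin) stood at a mean signal of 1.95 and 4.80 in the mineralizing and AEBSF cultures, and Sp7 and Runx2 were not analysed here. The summed signal of the 8 measured osteoblast genes was 28786 to 30445 in mineralizing and 26162 to 27361 in AEBSF cultures. Most of this sum was Ibsp, bone sialoprotein, at 15661 to 17285 in all 6 cultures. Limma called 3 of the 7 tested osteoblast genes lower and 0 higher: the type I collagen chains Col1a2 (log2 fold change -1.13, adjusted p = 1.27e-05) and Col1a1 (-0.67, 0.00116), and Phex, an endopeptidase of bone cells (-0.73, 3.36e-05). Among all 9864 tested genes, 9.22% were called lower and 7.09% higher. The fall of Col1a2 was larger than that of any family member, and the part of these osteoblast genes in the results below was not tested. Markers of other cell types were low in both groups: per culture, the measured macrophage and blood genes summed to at most 244, endothelial genes to at most 113, chondrocyte genes to at most 218, adipocyte genes to at most 202 and muscle genes to at most 105. The signals are MAS5 values, which summarise a probe set on a linear scale and were scaled to the same trimmed mean on every array, so a change in total RNA cannot be read from them. In such bulk RNA, fewer cells of a kind and less RNA per cell cannot be told apart.

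With AEBSF, 3 of the 9 genes were lower: Pdia4 clearly, and Pdia3 and Pdia6 by a smaller amount. Pdia4 fell 1.97-fold, Pdia3 fell 1.22-fold and Pdia6 fell 1.21-fold, while P4hb, the archetype of the family, had nearly the same mean signal in both groups. Of 12 probe sets, 11 passed the signal filter, and 3 of those 11 were called lower and 0 higher by limma at an adjusted p of 0.05 (5 lower and 0 higher at an unadjusted p under 0.05). Among all 18625 tested probe sets, 13.4% were called, 7.41% lower and 5.99% higher. At an unadjusted p under 0.05 in limma, 2671 of these 18625 were lower and 2619 higher. The members were chosen with earlier results of these data known, so these counts are described and not tested. The median log2 fold change of the 11 was -0.16, against 0.01 for all tested probe sets, and 10 of the 11 values lay below 0. All 3 AEBSF signals lay below all 3 mineralizing signals in 6 of the 11, a pattern that 16.5% of all tested probe sets had.

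**Figure D1:**
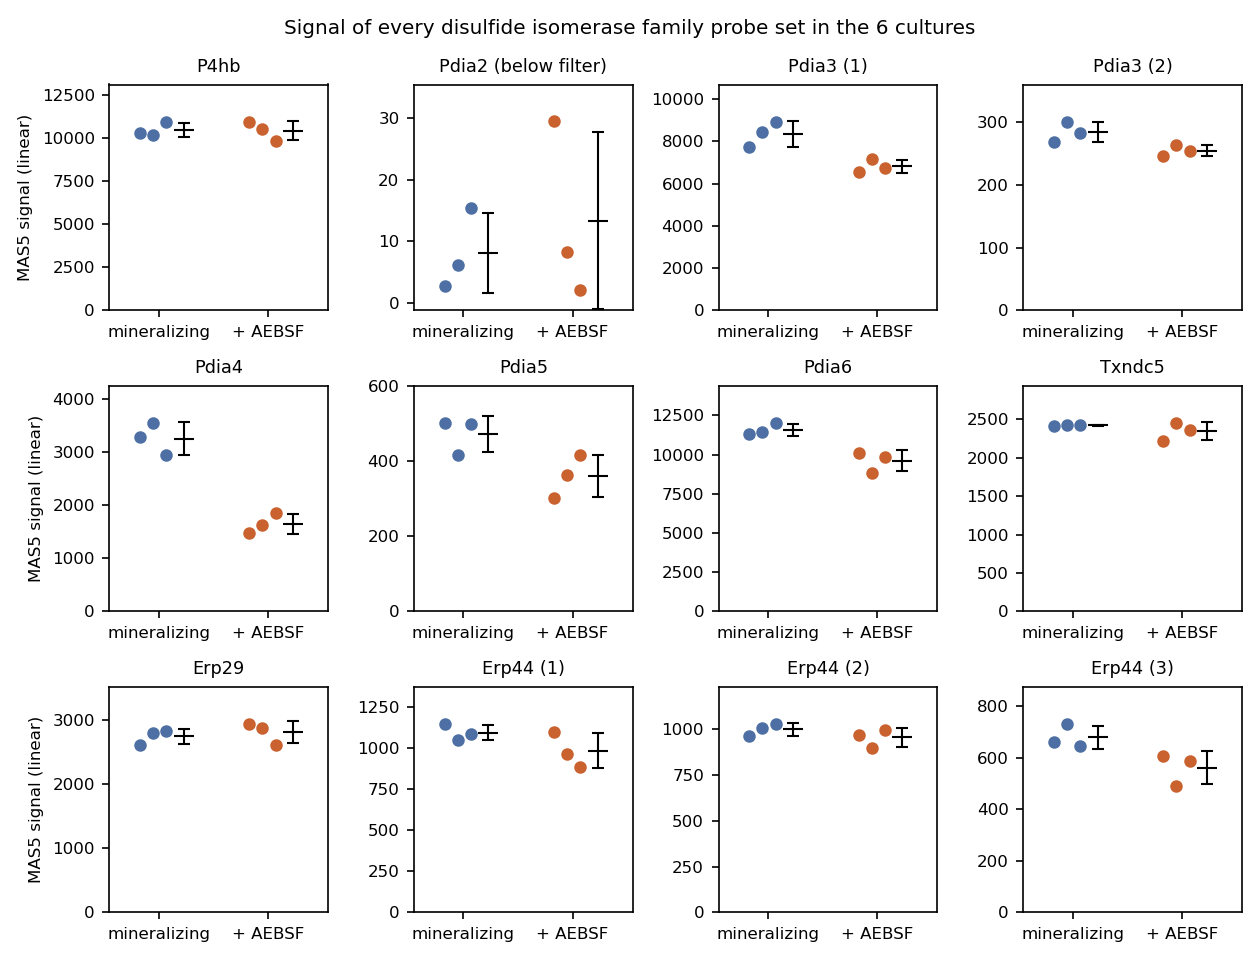
MAS5 signal on a linear scale for each of the 12 family probe sets (points: single cultures, 3 per group; bars to the right: mean and SD). Probe sets of Pdia3 and Erp44 are numbered by falling mean signal. The 3 AEBSF values of Pdia4, between 1489 and 1861, lie far below its mineralizing values of 2943 to 3553. The groups overlap for P4hb, Pdia2, Txndc5, Erp29 and all Erp44 probe sets but the dimmest.

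Pdia4 encodes an isomerase that works in chaperone complexes with BiP, the main ER chaperone. Its signals were 3290.4, 3553 and 2943 in mineralizing cultures 1, 2 and 3 and 1489, 1624 and 1861 in AEBSF cultures 1, 2 and 3. Every mineralizing culture lay well above every AEBSF culture. The mean fell from 3262 ± 306 to 1658 ± 188 (SD, n = 3 cultures each), a log2 fold change of -0.98 (SE 0.09, 95% interval -1.17 to -0.79, limma adjusted p = 7.57e-05). This was the 54th lowest log2 fold change of the 18625 tested probe sets. In the 16 alternative fits it stayed past the threshold, with a log2 fold change from -1.12 to -0.90.

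Pdia3 encodes the isomerase that calnexin and calreticulin bring to newly made glycoproteins. The brighter of its probe sets read 7715, 8430 and 8911 in the mineralizing cultures and 6559, 7157 and 6740 in the AEBSF cultures (cultures 1, 2 and 3). The groups did not overlap, and the mean fell from 8352 ± 601 to 6819 ± 307 (log2 fold change -0.29 with an SE of 0.06, limma adjusted p = 0.0114). The dimmer probe set read 268, 299.6 and 282 against 246, 264 and 254. It lay in the same direction with no overlap, but its SE of 0.12 was about as large as its log2 fold change of -0.15 and it did not pass (limma adjusted p = 0.418). The 2 probe sets' difference was not tested.

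Pdia6 encodes another isomerase that binds BiP. Its signals were 11300, 11410 and 12000 in mineralizing cultures and 10113, 8838 and 9852 in AEBSF cultures. Each AEBSF culture lay below each mineralizing one, and the mean fell from 11570 ± 377 to 9601 ± 674 (log2 fold change -0.27 with an SE of 0.06, limma adjusted p = 0.0135). The Pdia3 and Pdia6 calls were kept without any 1 array and were lost with a variance prior that does not follow the signal (limma adjusted p = 0.0909 and 0.0969). Both lie among the brightest probe sets, and of 731 tested probe sets with a mean signal of 5000 or more, 4.79% were called lower.

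Pdia5, an isomerase reported to act on the disulfides of Atf6, narrowly missed the threshold. It read 502, 418 and 500.3 in mineralizing cultures and 303, 365 and 417 in AEBSF cultures. Mineralizing culture 2 and AEBSF culture 3 were almost level, and the groups were only just apart. Its log2 fold change of -0.40 was larger than those of Pdia3 and Pdia6, but its SE was 0.13 (95% interval -0.68 to -0.12, limma adjusted p = 0.0623). The probe set passed in 2 of the 16 alternative fits, without AEBSF culture 3 (log2 fold change -0.50, limma adjusted p = 0.0299) and with arrays scaled to their hybridization controls (limma adjusted p = 0.0113). In the other 14 it did not pass, and without AEBSF culture 1 its log2 fold change was -0.27 (limma adjusted p = 0.187).

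P4hb, the classical disulfide isomerase and prolyl 4-hydroxylase subunit, read 10303, 10193 and 10935 in mineralizing cultures and 10918, 10559 and 9859 in AEBSF cultures. The groups overlapped fully, with means of 10477 ± 401 and 10445 ± 539. Its log2 fold change was -0.01 (SE 0.06, limma adjusted p = 0.965) with a 95% interval of -0.13 to 0.12, and -0.15 with arrays scaled to hybridization controls (limma adjusted p = 0.283). Txndc5, an isomerase with several thioredoxin-like domains, read 2415 to 2427 in mineralizing and 2222 to 2449.7 in AEBSF cultures. The highest of its 6 signals was an AEBSF culture, and its log2 fold change of -0.05 (95% interval -0.17 to 0.07) did not pass (limma adjusted p = 0.618).

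The members with no classical isomerase activity did not pass. Erp29, a chaperone that lacks the reactive cysteine pair, had means of 2750.1 ± 111 and 2814 ± 173 with overlapping groups (log2 fold change 0.03, 95% interval -0.10 to 0.17, limma adjusted p = 0.779). It was the only tested member probe set with a value above 0, and that value turned to -0.11 with the arrays scaled to hybridization controls. Erp44 retrieves client proteins and the Ero1 oxidases from the secretory pathway to the ER. Its 3 probe sets, from brightest to dimmest, had log2 fold changes of -0.16, -0.07 and -0.28 (limma adjusted p = 0.234, 0.581 and 0.0818). Only in the dimmest did the groups stand apart, with 646 to 729 in mineralizing and 488 to 606 in AEBSF cultures. When arrays were scaled to hybridization controls, that probe set passed (limma adjusted p = 0.0163). Pdia2, an isomerase best known from pancreas, read between 2.12 and 29.5 in the 6 cultures, below the filter at a signal of 67.2, and was not tested.

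**Figure D2:**
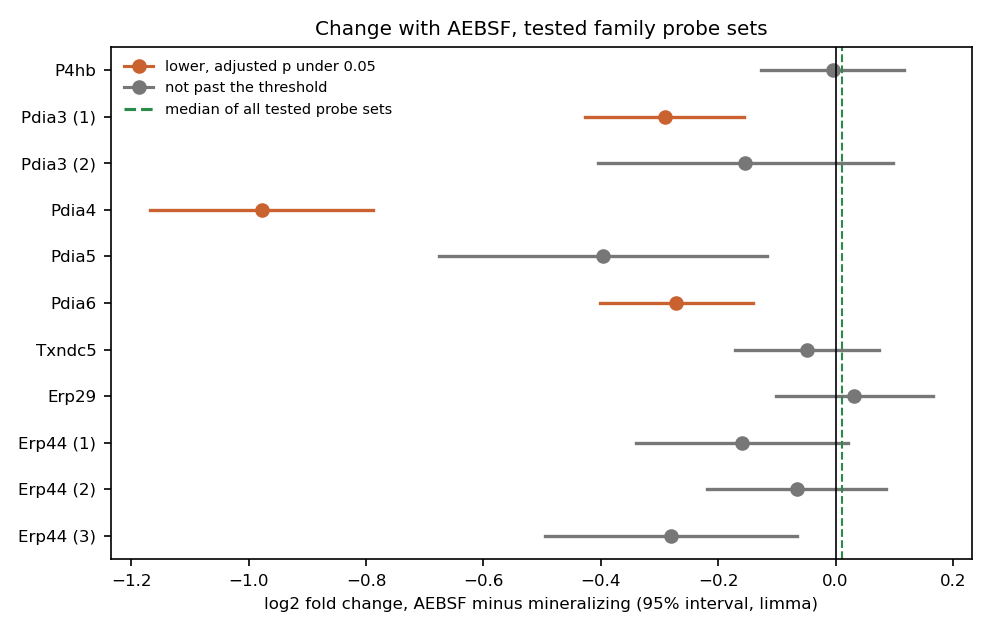
Log2 fold change, AEBSF minus mineralizing, of the 11 tested family probe sets with limma's 95% interval (orange: called lower; grey: not past the threshold; green dashes: median of all tested probe sets, 0.01). Pdia4 at -0.98 stands apart to the left. The intervals of P4hb, Txndc5, Erp29, the dimmer Pdia3 probe set and all Erp44 probe sets but the dimmest include 0.

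Scaling bears on these counts. With each array scaled to its spiked hybridization controls, the median log2 fold change of all tested probe sets moved from 0.01 to -0.13, and the calls over all probe sets moved from 1380 lower and 1115 higher to 2457 lower and 119 higher. Under that scaling 5 of the 11 family probe sets were lower, Pdia5 and the dimmest of Erp44 in addition, against 13.2% of all probe sets.

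Ratios within an array do not depend on such scaling, and they describe differences between members. The 7 ratios below all contain Pdia4, the member with the largest fall, whereas the planned reference was Pdia3. They share the Pdia4 values and are not separate evidence. The 95% intervals of all differences between members come from an ordinary linear model of each ratio, not from limma. Relative to Pdia3, Pdia4 had a log2 fold change lower by a further 0.69 (difference -0.69, 95% interval -1.11 to -0.26). The difference was -0.71 from Pdia6 (-1.13 to -0.28) and -0.58 from Pdia5 (-1.04 to -0.12). From P4hb it was -0.97 (-1.46 to -0.49), from Txndc5 -0.93 (-1.24 to -0.62) and from Erp29 -1.01 (-1.49 to -0.53). Set against the brightest probe set of Erp44 it was -0.82 (-1.39 to -0.25). In all 7 of these ratios the 3 AEBSF arrays lay below the 3 mineralizing arrays. Each gave p = 0.1 in a two-sided exact permutation test, the smallest that 3 arrays against 3 can give, and 0.2 after Benjamini-Hochberg adjustment over the 28 pairs of tested genes, so no pair could pass.

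**Figure D3:**
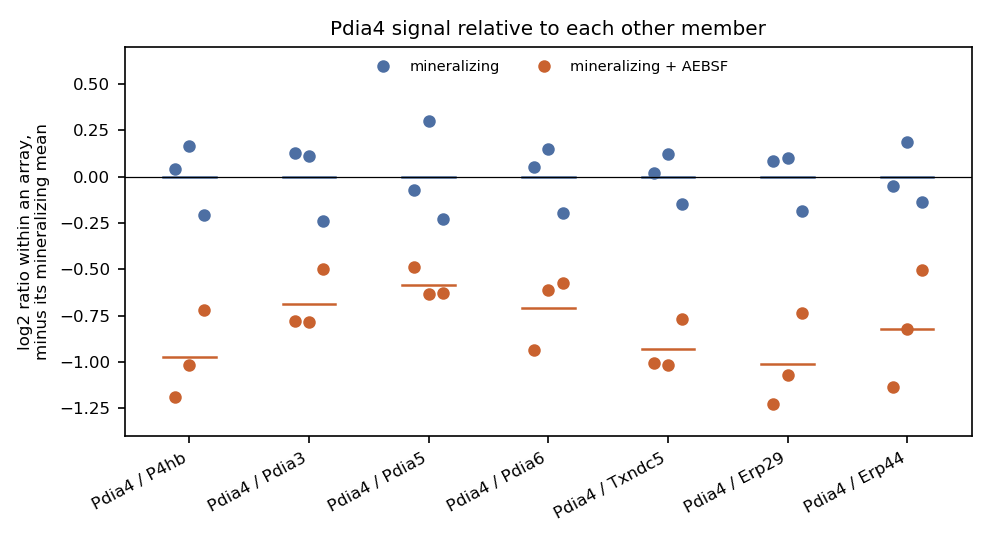
Log2 ratio of the Pdia4 signal to that of each other tested member within the same array, minus its mean over the mineralizing arrays (points: single arrays, 3 per group; lines: group means). The AEBSF means lie between -0.58 (against Pdia5) and -1.01 (against Erp29), and no AEBSF array overlaps the mineralizing ones.

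Among the other 21 pairs, 7 had ratios without overlap, and 5 had an interval that left out 0. The log2 fold change of Pdia3 minus that of Pdia6 was -0.02, but its 95% interval of -0.31 to 0.27 was wider than either gene's own fall, and the pair cannot be called alike. P4hb stood 0.29 above Pdia3 (0.08 to 0.49) and 0.27 above Pdia6 (0.06 to 0.47), each at the smallest possible exact permutation p of 0.1. P4hb and Erp29 differed by 0.04 (P4hb minus Erp29 -0.04, -0.14 to 0.06), the narrowest interval of any pair.

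The promoters of the member that changed most (Pdia4), of the one that narrowly missed the threshold (Pdia5) and of one whose groups overlapped (P4hb) are shown because these genes share a family and a compartment. Between P4hb and Pdia5 no difference was shown: the log2 fold change of P4hb minus that of Pdia5 was 0.39 (95% interval -0.14 to 0.92, exact permutation p = 0.2, 0.311 adjusted over the 28 pairs). They are RefSeq windows of build GRCr8, from 250 bases before to 50 bases after the gene's start, written 5′ to 3′ on the gene's strand: Pdia4 at chr4:78153142-78153441, minus strand; Pdia5 at chr11:78777258-78777557, plus strand; P4hb at chr10:106346862-106347161, minus strand. Capitals mark CCAAT and CCACG, in either orientation.
Pdia4: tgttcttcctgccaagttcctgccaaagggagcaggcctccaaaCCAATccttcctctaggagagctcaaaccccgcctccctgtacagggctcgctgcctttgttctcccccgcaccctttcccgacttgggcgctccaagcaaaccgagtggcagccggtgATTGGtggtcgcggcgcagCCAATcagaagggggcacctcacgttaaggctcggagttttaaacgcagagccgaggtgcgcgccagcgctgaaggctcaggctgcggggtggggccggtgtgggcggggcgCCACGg
Pdia5: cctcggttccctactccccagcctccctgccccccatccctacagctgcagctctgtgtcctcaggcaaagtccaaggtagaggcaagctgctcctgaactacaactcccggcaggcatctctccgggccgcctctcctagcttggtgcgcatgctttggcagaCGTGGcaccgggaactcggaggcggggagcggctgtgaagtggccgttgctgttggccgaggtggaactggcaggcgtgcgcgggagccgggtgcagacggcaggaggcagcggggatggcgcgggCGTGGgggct
P4hb: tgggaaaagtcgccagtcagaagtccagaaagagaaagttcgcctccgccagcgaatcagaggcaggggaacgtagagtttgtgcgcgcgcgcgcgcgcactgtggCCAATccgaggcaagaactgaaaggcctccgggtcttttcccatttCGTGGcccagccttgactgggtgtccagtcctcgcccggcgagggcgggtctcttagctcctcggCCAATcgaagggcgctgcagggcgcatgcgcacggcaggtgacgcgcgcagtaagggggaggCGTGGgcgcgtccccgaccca
These letters are the ends of the ER stress response element (ERSE: CCAAT, then 9 bases of any kind, then CCACG), which NF-Y and Atf6 are known to bind together. Pdia4 held CCAAT 3 times, at -206 to -202, -87 to -83 (reverse) and -68 to -64 from the start, and CCACG once, at 45 to 49. P4hb held CCAAT at -144 to -140 and -33 to -29 and CCACG, in reverse, at -98 to -94 and 30 to 34. Pdia5 held CCACG in reverse at -86 to -82 and 41 to 45, and no CCAAT. Of the 9 genes 7 had a window in the table; all but Pdia3 and Pdia6 were matched by symbol. CCAAT occurred in 3 of the 7, against 37.5% of all 33469 windows, and CCACG in 6 of 7, against 31.6%. G and C made up 59% to 72% of the 7 windows. The shares over all windows were not matched for this, and the difference was not tested. Only exact matches were searched, on either strand. The full element was in 0 of the 7 and in 0.0657% of all windows. The short form ERSE-II (ATTGG, 1 base of any kind, CCACG) was in 0 of the 7 and in 0.0508%. With shares this small, 0 of 7 does not set the members apart from other windows. Sites that differ from the element in a base were not counted. In Pdia4 the reverse CCAAT at -87 to -83 stands 9 bases from a stretch that differs from reversed CCACG in 1 base.

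Among the listed genes that work with the family, more were called lower than higher. The lists were chosen with earlier results of these data known, so these counts are described and not tested. Of 39 genes in 4 lists, 32 were tested, 4 lay below the filter and 3, Pdilt, Agr3 and Ern1, were not analysed here. Limma called 10 of the 32 lower and 1 higher, where 9.22% of all 9864 tested genes were lower and 7.09% higher. At an unadjusted p under 0.05 in limma, 16 of the 32 were lower and 2 higher. Of all 9864 tested genes, 1637 were lower and 1505 higher at that level. The median log2 fold change of the 32 was -0.19, against 0.00 for all tested genes. Most of the calls at an adjusted p under 0.05 lay close to that threshold. The count of 10 was 5, 3 and 4 without mineralizing culture 1, 2 or 3, and 6 and 4 without AEBSF culture 1 or 2. It was 5 with each array centred on its median or with no signal filter, 2 with a constant variance prior and 16 with hybridization scaling. The calls of P4ha2, Calr and Atf6 were kept without any 1 array, and those of P4ha2 and Atf6 with a constant variance prior too.

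Oxidases and other enzymes listed for disulfide formation gave 3 lower and 0 higher of 9 tested (4 lower and 1 higher at an unadjusted p under 0.05 in limma). Ero1b, an ER oxidase, fell from 248 ± 42.3 to 134 ± 43.8 (-0.92 on the log2 scale, SE 0.23, limma adjusted p = 0.0229), the largest fall in these 4 lists. Its call was lost without mineralizing culture 2 or 3 (limma adjusted p = 0.0893 and 0.0625), and its other probe set lay below the filter. Prdx4, the ER peroxiredoxin, fell from 3919 ± 62.6 to 3326 ± 212 (log2 fold change -0.24), and Vkorc1, the vitamin K reductase, from 1171 ± 15.8 to 987 ± 57.2 (-0.25). The Prdx4 call was lost without any 1 of mineralizing cultures 1 to 3 and AEBSF cultures 1 and 2 (limma adjusted p = 0.0526 to 0.073). The Vkorc1 call was lost without any 1 of mineralizing cultures 1 to 3 and AEBSF culture 2 (0.0841 to 0.0974). Gpx8, a peroxidase of the ER, had signals of 2231 ± 326 and 1831 ± 106 and did not pass (log2 fold change -0.28, limma adjusted p = 0.0677). It passed without mineralizing culture 1, with the replicate block or with hybridization scaling (limma adjusted p = 0.0256, 0.0381 and 0.00477), and without mineralizing culture 3 its log2 fold change was -0.17 (limma adjusted p = 0.226).

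Other ER proteins with a thioredoxin fold gave 2 lower and 1 higher of 8 tested (5 lower and 1 higher at an unadjusted p under 0.05 in limma). Txndc16 fell from 367 ± 48.9 to 271 ± 21.1 (log2 fold change -0.43, SE 0.13). Dnajc10, a reductase that helps dispose of misfolded proteins, fell from 1947 ± 65.9 to 1701 ± 30.0 (-0.19, SE 0.06), and its second probe set did not pass (-0.07, limma adjusted p = 0.617). Tmx2, a membrane-bound relative, rose from 2293 ± 119 to 2656 ± 44.0 (0.21, SE 0.06). The Txndc16 call was lost without any 1 of the 6 arrays (limma adjusted p = 0.0616 to 0.172). The Dnajc10 call was lost without any 1 array but AEBSF culture 3 (0.0873 to 0.14), and the Tmx2 call without any 1 but mineralizing culture 3 (0.056 to 0.13). Tmx2 at 0.07 did not pass with hybridization scaling (limma adjusted p = 0.688). The brightest, Tmx1 and Tmx3, had log2 fold changes of -0.12 and -0.04 and did not pass (limma adjusted p = 0.166 and 0.685).

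Direct partners of the family gave 3 lower and 0 higher of 8 tested (4 lower and 0 higher at an unadjusted p under 0.05 in limma). P4ha2 and P4ha1 are catalytic alpha subunits that join P4hb in prolyl 4-hydroxylase. P4ha2 read 2869, 2891 and 3285 in mineralizing cultures and 2158, 2049.9 and 1849 in AEBSF cultures. Its groups were well apart (log2 fold change -0.58 with an SE of 0.07, limma adjusted p = 0.000656), and its dimmer probe set passed as well (-0.34, limma adjusted p = 0.0419). P4ha1 fell from 3634 ± 135 to 3192 ± 124 (-0.19, SE 0.06), a call lost without any 1 of the 6 arrays (limma adjusted p = 0.0637 to 0.133). The third alpha subunit, P4ha3, lay below the filter, and the difference between the alpha subunits and P4hb was not tested.

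Calreticulin (Calr), the soluble lectin that works with Pdia3, read 7559, 7687 and 7381 in mineralizing cultures and 6515, 6201 and 5476 in AEBSF cultures. It fell without overlap (log2 fold change -0.32 with an SE of 0.06, limma adjusted p = 0.00852), and the call was lost with a constant variance prior (limma adjusted p = 0.0827). Calnexin (Canx), the membrane-bound lectin, had 9700 ± 183 and 8920.3 ± 284 and did not pass in its brightest probe set (log2 fold change -0.12, limma adjusted p = 0.134). Of its other 2 probe sets 1 passed (-0.23, limma adjusted p = 0.0128) and 1 did not (-0.12, 0.142). Canx passed after quantile normalization, with hybridization scaling or with the mean of its probe sets (limma adjusted p = 0.00847, 0.0293 and 0.0369). BiP (Hspa5), to which Pdia4 and Pdia6 bind, stood at -0.02 on the same scale (SE 0.06, limma adjusted p = 0.882).

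Of the transducers and factors of the unfolded protein response, 2 of 7 tested were lower and 0 higher (3 lower and 0 higher at an unadjusted p under 0.05 in limma). Atf6 read 2615.5, 2569.7 and 2373 in mineralizing cultures and 1903, 1746 and 1862 in AEBSF cultures. The groups were apart by more than the spread within either (log2 fold change -0.46 with an SE of 0.06, limma adjusted p = 0.000905), and its dimmer probe set passed too (-0.44, limma adjusted p = 0.0295). Xbp1 fell from 4877 ± 102 to 4259 ± 139 (-0.20, SE 0.05), a call lost without any 1 of mineralizing cultures 1 to 3 and AEBSF culture 2 (limma adjusted p = 0.0591 to 0.117). Atf4, the brightest of the list, stood at 0.04 on the log2 scale (limma adjusted p = 0.714), which turned to -0.06 after quantile normalization.

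**Figure D4:**
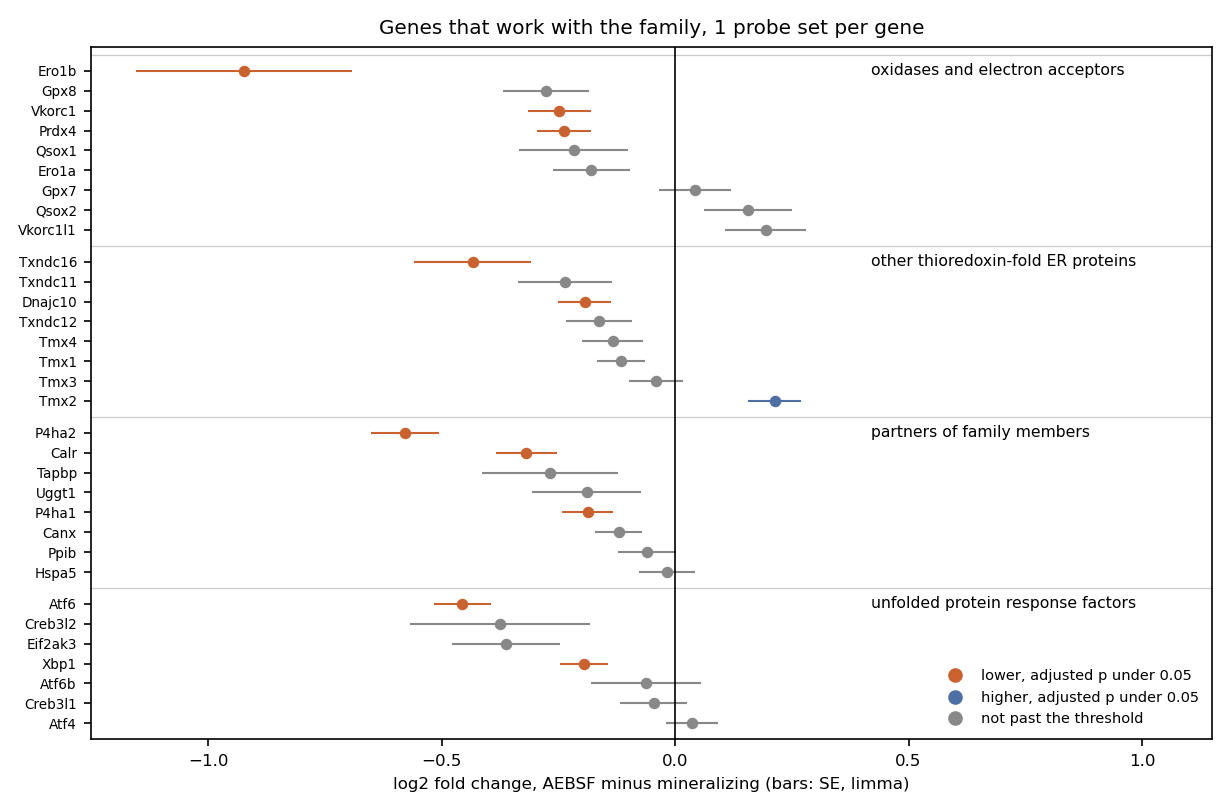
Log2 fold change, AEBSF minus mineralizing, of the 32 tested genes in the 4 lists, each from its brightest probe set (points: estimate; bars: SE from limma; orange: lower, blue: higher, grey: not past the threshold). Ero1b at -0.92 has the largest fall and a wide bar, P4ha2, Atf6 and Calr fell with narrow bars, and Tmx2 at 0.21 is the only called rise.

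The tested genes outside the family whose profile over the 6 arrays was nearest to that of Pdia4 were Fgf1, Il18, Sox6, Rbl2 and Enpp2. Likeness was the root mean square difference between log2 profiles, each centred on its mineralizing mean, over 6 arrays and 9856 candidate genes. It ran from 0.10 for Fgf1, a fibroblast growth factor, to 0.12 for Enpp2, which makes lysophosphatidic acid. All 5 were called lower, with log2 fold changes from -0.95 (Il18) to -0.83 (Rbl2), as choosing by likeness to a falling profile gives.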

How the data were processed

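Gene expression was measured on 1 Affymetrix rat array per culture, 3 mineralizing and 3 mineralizing+AEBSF, which the design text calls triplicate cultures. The submitters' processing notes name MAS5 and GCOS, without versions, for the deposited intensity of each probe set. The trimmed mean (2% off each end) was 500.15 or 500.16 on every array. No array copied another: any 2 of them shared at most 2 equal values over 31099 probe sets.

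Probe sets were named by the platform annotation (20826 with 1 symbol, 436 with several, 9780 unnamed), with symbols updated to RefSeq of GRCr8. Log2 signals were fitted in R 4.3.3 with limma 3.58.1 (lmFit, eBayes with trend) over 18625 probe sets whose mean log2 signal lay above the 40th percentile, 57 controls left out. P-values were adjusted by the Benjamini-Hochberg method, threshold 0.05. A gene outside the family was represented by its brightest probe set. The fit was tested on simulated data with each probe set's own mean and spread. It called 43 of 98 changes of 0.5 on the log2 scale and 79 of 96 changes of 1, with 5 false calls. Changes of 0.5 were thus often missed in the simulation. It changed far fewer probe sets than were called in the data, which makes the adjusted threshold stricter. Its recovery therefore cannot be carried over to the data or to single probe sets. A probe set that did not pass may still have changed. The number of arrays, 3 per group, limits the precision.

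The members and lists were chosen with earlier results of these data known. Named are all family probe sets, called members of each list and its 2 brightest, the 5 genes nearest to Pdia4, and cell type markers. Named outside that rule, after their values were seen, are P4ha3 and genes whose sign changed with a setting. Alternatives were quantile normalization, median centring, scaling to 18 hybridization controls, 16 or 64 added to the signal, no filter or the 60th percentile, constant or robust variance priors, the replicate number as a block, averaging a gene's probe sets, and leaving out each array.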

Additional observations from a re-analysis of the deposited data

How the results depend on the processing

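The family count of 3 lower probe sets was 5 with hybridization scaling, 1 with a constant variance prior and 3 to 4 without 1 array. Over all probe sets 2495 were called, 885 with a constant variance prior and 1200 to 2250 without 1 array. In the pathway lists, 10 genes were lower: 16 with hybridization scaling, 5 with median centring, 5 with no filter, 2 with a constant prior and 3 to 8 without 1 array. The 1 higher gene, Tmx2, was 0 with hybridization scaling, median centring, no filter, a constant prior or the replicate block, and 0 to 1 without 1 array. The difference between Pdia4 and Pdia3 stayed between -0.81 and -0.62 in all settings run.

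Values near 0 changed sign. With hybridization scaling Erp29 stood at -0.11, Atf4 at -0.11 and Gpx7 at -0.10, and Atf4 at -0.058 after quantile normalization. Without 1 array, log2 fold changes ran from -0.0020 to 0.083 for Erp29, -0.038 to 0.036 for P4hb, -0.062 to 0.0099 for Hspa5, -0.168 to 0.013 for Atf6b, -0.082 to 0.015 for Creb3l1 and -0.078 to 0.0045 for Tmx3. The difference of Pdia6 minus Pdia3 ran from -0.046 to 0.114. The cause of these changes was not tested.

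Deviations of same-numbered cultures from their group means correlated at 0.0109, -0.119 and -0.0359 over all tested probe sets, so no pairing by number was seen. With 3 cultures per group, such correlations cannot decide whether same-numbered cultures were handled together. With the replicate block 3 family probe sets were lower, and 7 pathway genes were lower and 0 higher. What could be called with 3 arrays per group differed with a probe set's spread: Pdia6 passed at -0.27 with an SE of 0.06, and Pdia5 did not at -0.40 with an SE of 0.13.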

Other observations

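Within the AEBSF group the members did not vary together. Pdia4 and Pdia5 had their lowest signal in AEBSF culture 1 (1489 and 303) and their highest in culture 3 (1861 and 417). P4hb, Erp29 and the brightest probe set of Erp44 were highest in culture 1 (10918, 2943 and 1100) and lowest in culture 3 (9859, 2617 and 888). The other Erp44 probe sets did not share this order and were both lowest in culture 2 (898 and 488). Pdia6 was lowest in culture 2 (8838), and both Pdia3 probe sets were highest there (7157 and 264). With 3 cultures these are single values and no test was made of them.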
